A study of Mus musculus with 6 samples.

Results

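A set of 9 genes of the germinal centre B-cell programme, Bcl6, Mybl1, Mef2b, Fas, S1pr2, Rgs13, Gcsam, Nuggc and Basp1, were followed at their baseline in splenic naive B cells. The members were taken by gene name from the 41053 gene names of the count table, and all 9 were found. RNA was sequenced from naive B cells of mouse spleen in 3 libraries labelled TET2 Knock-Out (KO2, KO3 and KO4) and 3 labelled TET2 wild type (WT2, WT3 and WT4), all on the C57BL/6 strain and with no treatment given. TET2 is an enzyme that oxidizes 5-methylcytosine in DNA. The labels give no age, no sex, no form of the Tet2 allele and no word on whether the libraries are from different animals. The p-values thus rest on the variation among these 6 libraries, part or all of which may be technical.

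A naive B cell is a resting cell that has not yet met antigen. When antigen and T-cell help arrive it can enter a germinal centre, where it divides, mutates its antibody genes and is selected for affinity. BCL6, a transcriptional repressor, holds that state in place, and the other genes followed here are known for high expression in germinal centre B cells, where they act in transcription, cell death, positioning and signalling. In a resting naive population most of them are low or silent.

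The libraries held 45401781, 41995719 and 39872470 counts in knockout and 42682762, 43343789 and 35101788 in wild type. Levels are given as CPM, counts scaled to a common normalized library size, within a gene, and as FPKM, CPM per kilobase of exon, between genes. On the CPM scale 3 counts in 1 library equal 0.0679 to 0.0856 CPM. KO4 and WT4 stood apart from the libraries numbered 2 and 3 on the second principal component of log2 CPM, which held 31.5% of the variance, while the first (38.6%) separated the genotypes. The labels do not say what the numbers mark. Counts of Y-linked genes summed to 5141 to 8301 per knockout library and 894 to 1343 per wild-type library, and Xist had 31746 to 37530 counts in knockout and 50529 to 67863 in wild type, so genotype and sex composition cannot be told apart here. Tet2 stood at 58.1 ± 7.47 CPM in knockout, against 71.6 ± 13.5 in wild type (SD over 3 libraries each; log2 difference −0.30, edgeR adjusted p = 0.408), and since the deleted part is not given, this level does not check the labels. The cells carried transcripts of mature B cells, with Ighm (the IgM heavy chain) at 8034 ± 760.3 CPM in knockout, against 6808 ± 458 in wild type. Fcer2a (CD23, a marker of follicular B cells) stood at 1631 ± 315 CPM in knockout, against 1489 ± 140.4 in wild type.

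In these naive cells the germinal centre genes fell into 1 well expressed member, 7 low ones, and Mef2b, whose level the counts do not measure. Bcl6 averaged 23.9 FPKM over the 6 libraries, which is above 80.4% of the 13604 genes that passed the filter on low counts. Fas followed at 3.09 FPKM, above 35.7% of them. Rgs13 (1.13 FPKM), Nuggc (0.961), S1pr2 (0.742), Mybl1 (0.702), Basp1 (0.680) and Gcsam (0.323) all lay under 1.34 FPKM, the lower quartile of the tested genes, whose median was 6.94 FPKM. Mef2b was counted at 0.0635 FPKM and did not pass the filter, but 1275 of its 1342 exon bases are shared with another gene, so it is left out of the order. Among the other members 2 steps were larger than the spread over libraries, namely Bcl6 over Fas (7.74-fold) and Fas over Rgs13 (2.74-fold), with no overlap over all 6 libraries. The 5 genes from Rgs13 to Basp1 overlapped each with its neighbour, so neighbours cannot be ordered by their ranges. Rgs13, at 0.838 FPKM in its lowest library, did lie above Mybl1, at 0.802 FPKM in its highest. Nuggc over S1pr2 and Basp1 over Gcsam overlapped in range, although the first of each pair was the higher within each of the 6 libraries.

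**Figure D1:**
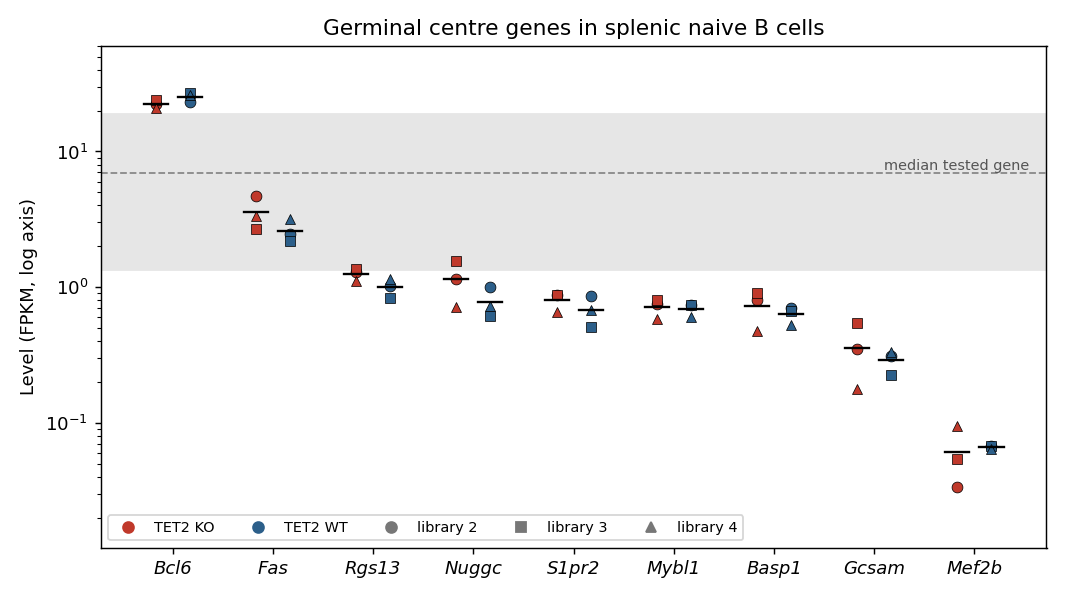
Level of the 9 genes in FPKM on a log axis, with 1 point per library, red for TET2 KO and blue for TET2 WT, marker shape for the library number and a bar at the mean of each genotype. The dashed line is the median tested gene (6.94 FPKM) and the grey band its quartiles (1.34 to 18.8 FPKM); only Bcl6 sits above the band, the genotypes overlap for each gene, and the points of Mef2b are no measure of its level because its exons are shared.

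None of the germinal centre genes that could be tested was called between the genotypes. Of the 9 members 8 entered the fit across all genes, and edgeR's quasi-likelihood test called 0 of 8 at an adjusted p under 0.05, where 0.404% of the 13604 tested genes (55) were called. DESeq2 also called 0 of 8 (2.57% of all genes) and limma-voom 0 of 8 (0.353%). At an unadjusted edgeR p under 0.05 there were again 0 of 8, against 13.4% of all genes, and in 0 of 8 did the CPM of the genotypes separate, against 18.5%. These shares over all tested genes are also the ones to set beside the counts of the gene lists below. The log2 difference, knockout over wild type, was above 0 for 7 of 8 and below 0 for Bcl6, with a median of 0.27, beside −0.0051 over all tested genes, of which 6641 were above 0 and 6963 below. In RNA from a whole population, more cells with a transcript and more transcript per cell cannot be told apart. With 3 against 3 libraries an exact permutation test of the CPM cannot go under p = 0.1, and the two-sided exact p ran between 0.2 and 0.7 over the 9 members.

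Bcl6 (chromosome 16, 23965052 to 23988852, minus strand, GRCm38) encodes the repressor that defines the germinal centre state. It had 151.2, 160.1 and 140.3 CPM in KO2, KO3 and KO4, against 154.8, 180.02 and 174.8 CPM in WT2, WT3 and WT4. KO4 was the lowest and WT3 the highest, and KO3 lay above WT2, so the genotypes overlapped. The mean was 150.5 ± 9.94 CPM in knockout and 169.9 ± 13.3 in wild type (SD, n = 3 each), a fold of 0.886 with a 95% interval of 0.779 to 1.01 (log2 −0.17, SE 0.08, edgeR adjusted p = 0.404). Each library held 5553 to 7922 Bcl6 counts, and this interval is the narrowest among the tested members. The interval reaches from a fall to 0.779 of wild type to a rise of 1.01-fold. It rests on the variation among these 6 libraries, in which genotype and sex composition cannot be told apart.

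The table of RefSeq start sites (GRCm38.p6) gives 2 windows for Bcl6, each of 250 bases before to 50 bases after a start, 5′ to 3′ on the gene's strand. They are printed because Bcl6 is the member with the highest level and because BCL6 is known to bind its own gene through sites that resemble TTCNNNGAA, a motif that reads the same on both strands. The first window (chr16:23988803-23989102, minus strand) covers the start at which the counted exons of Bcl6 begin, and holds 31 CG dinucleotides, shown in capitals; CG is the site at which 5-methylcytosine mostly lies, and the median over 32851 windows of all genes was 7. The second (chr16:23981234-23981533, minus strand) belongs to a start 7569 bases further along the gene, outside the counted exons, and holds 3 copies of TTCNNNGAA, shown in capitals. The motif was in 8.30% of all windows, and 0.0335% held at least 3 copies. A match is a string of letters and no evidence of binding in these cells.
Bcl6, first start, CG in capitals: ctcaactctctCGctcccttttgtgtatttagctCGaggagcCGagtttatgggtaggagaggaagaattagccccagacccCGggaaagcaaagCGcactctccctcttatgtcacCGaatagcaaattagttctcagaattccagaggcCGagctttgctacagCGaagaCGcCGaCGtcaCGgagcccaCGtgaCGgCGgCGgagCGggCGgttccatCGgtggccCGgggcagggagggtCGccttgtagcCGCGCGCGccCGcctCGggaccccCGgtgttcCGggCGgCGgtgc
Bcl6, second start, TTCNNNGAA in capitals: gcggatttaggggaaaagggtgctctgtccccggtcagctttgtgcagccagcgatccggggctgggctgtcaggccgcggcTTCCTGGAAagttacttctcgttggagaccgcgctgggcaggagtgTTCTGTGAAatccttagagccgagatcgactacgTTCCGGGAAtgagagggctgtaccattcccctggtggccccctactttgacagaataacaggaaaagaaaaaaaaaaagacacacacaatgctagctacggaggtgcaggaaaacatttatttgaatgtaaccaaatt

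Mybl1 (chromosome 1, 9667415 to 9700209) encodes A-MYB, a transcription factor of the MYB family expressed in germinal centre B cells. Its levels were 4.09, 4.33 and 3.16 CPM in KO2, KO3 and KO4, against 3.96, 3.98 and 3.25 CPM in WT2, WT3 and WT4. Both libraries numbered 4 were lower than the other 4, and within each number the genotypes lay close together. The fold was 1.03 with an interval of 0.779 to 1.37 (log2 0.05, SE 0.18, edgeR adjusted p = 0.935), the smallest difference among the members, and scaling to library size alone turned it to −0.0014. The other MYB genes of the list did not pass the test either with edgeR, DESeq2 or limma-voom: Mybl2, which acts in cycling cells, stood at 2.92 ± 0.422 CPM in knockout, against 2.56 ± 0.587 in wild type, and Myb at 6.81 ± 1.22 CPM in knockout, against 7.35 ± 1.01 in wild type. Per kilobase, Myb (1.67 ± 0.298 FPKM in knockout, 1.80 ± 0.246 in wild type) was above Mybl1 (0.714 ± 0.115 FPKM in knockout, 0.691 ± 0.0765 in wild type).

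Mef2b (chromosome 8, 70152778 to 70167488) encodes a MADS-box factor that is known to activate Bcl6 in germinal centre B cells. It had 2, 3 and 5 counts in KO2, KO3 and KO4, against 4, 4 and 3 counts in WT2, WT3 and WT4. These are 0.0454 to 0.126 CPM in knockout and 0.0856 to 0.0909 in wild type, at about the value of 3 counts. The gene that shares its exons, on the same strand, is 2310045N01Rik, a gene that had 36.7 ± 1.91 CPM in knockout and 34.8 ± 0.467 in wild type, and a fragment in shared exons goes to neither gene by the counter's default, which the recorded command leaves in place. The counts of Mef2b are then no measure of its transcript level. Its relatives were well expressed and not called: Mef2c, the member of the family with a known role in B-cell proliferation, at 743 ± 56.2 CPM in knockout, against 729 ± 14.2 in wild type (log2 0.03, edgeR adjusted p = 0.909), Mef2d at 375 ± 15.99 CPM in knockout, against 401 ± 16.3 in wild type, and Mef2a at 105 ± 1.05 CPM in knockout, against 111 ± 5.99 in wild type.

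Among the surface receptors, Fas (chromosome 19, 34290659 to 34327770) encodes the death receptor that marks germinal centre B cells. It reached 8.42, 4.84 and 6.04 CPM in KO2, KO3 and KO4, against 4.41, 3.95 and 5.74 CPM in WT2, WT3 and WT4. KO2 stood above the other 5 libraries, with an exact 95% Poisson interval of 7.59 to 9.32 CPM that covers counting error only and meets the interval of no other library, while KO3 lay below WT4. Within each number knockout was the higher library. The mean was 6.43 ± 1.82 CPM in knockout and 4.70 ± 0.925 in wild type, a fold of 1.37 with an interval of 0.961 to 1.96 (log2 0.46, SE 0.23, edgeR adjusted p = 0.424). Fasl, the ligand, had 0, 2 and 0 counts in knockout and 1 count in each wild-type library. The machinery behind the receptor was present, with Casp8, the initiator caspase, at 141 ± 9.27 CPM in knockout, against 131 ± 2.84 in wild type, and Fadd, the adaptor, at 16.3 ± 1.79 CPM in knockout, against 13.8 ± 0.500 in wild type. Of the 9 listed genes of this pathway 8 were tested and 0 were called (edgeR), with 1 at an unadjusted p under 0.05, Faim3, a receptor for IgM once described as an inhibitor of Fas (log2 0.29, edgeR adjusted p = 0.295). DESeq2 and limma-voom each called 0.

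S1pr2 (chromosome 9, 20965952 to 20976793, minus strand) encodes the sphingosine-1-phosphate receptor that signals through Gα13 and confines germinal centre B cells to the follicle centre. It showed 2.47, 2.45 and 1.84 CPM in KO2, KO3 and KO4, against 2.42, 1.43 and 1.91 CPM in WT2, WT3 and WT4. WT3 was the lowest, and WT2 nearly reached KO2 and KO3. The fold was 1.18 with an interval of 0.806 to 1.71 (log2 0.23, SE 0.24, edgeR adjusted p = 0.705). Its counterpart S1pr1, the receptor by which naive lymphocytes leave the spleen and lymph nodes, was far higher per kilobase, at 136 ± 7.11 FPKM in knockout and 129 ± 4.92 FPKM in wild type, where S1pr2 had 0.802 ± 0.127 FPKM in knockout and 0.683 ± 0.176 FPKM in wild type. Gna13, the G protein of S1pr2, had 276 ± 31.9 CPM in knockout and 292 ± 19.6 in wild type. Of 12 listed genes of sphingosine-1-phosphate signalling 11 were tested and edgeR, DESeq2 and limma-voom each called 0; 1 had an unadjusted edgeR p under 0.05, Gnai2, an inhibitory G protein, at 873 ± 41.9 CPM in knockout, against 742 ± 18.6 in wild type (log2 0.23, edgeR adjusted p = 0.254). Rhoa, a small GTPase downstream of Gα13, had a log2 difference of 0.20 (edgeR adjusted p = 0.399).

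**Figure D2:**
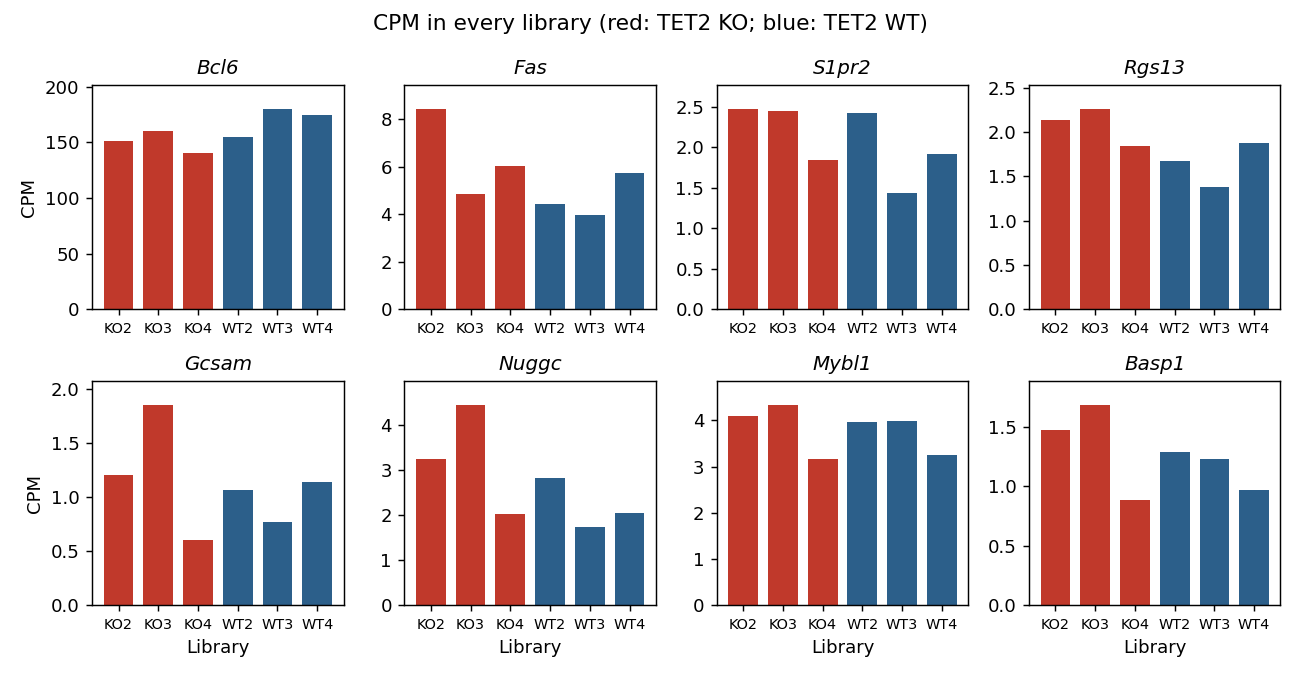
CPM of the 8 tested genes in each library, with a panel per gene, an axis from 0, red bars for KO2, KO3 and KO4 and blue bars for WT2, WT3 and WT4. In each panel the ranges of the red and the blue bars overlap, and KO4 is lower than KO2 and KO3 in each panel except that of Fas.

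Rgs13 (chromosome 1, 144138654 to 144177372, minus strand) encodes a GTPase-activating protein that limits signalling of chemokine receptors in germinal centre B cells. Levels were 2.13, 2.26 and 1.84 CPM in KO2, KO3 and KO4, against 1.68, 1.39 and 1.88 CPM in WT2, WT3 and WT4. Only WT4 kept the genotypes from separating, as it lay just above KO4. The fold was 1.27 with an interval of 0.919 to 1.74 (log2 0.34, SE 0.20, edgeR adjusted p = 0.502). Of the 9 other Rgs genes listed 8 were tested, and edgeR called 0 with 0 at an unadjusted p under 0.05, as did DESeq2 and limma-voom for their adjusted p. Rgs1, which restrains the same kind of receptors and rises on activation, had 1.25, 1.23 and 7.91 CPM in KO2, KO3 and KO4, against 7.52, 5.07 and 7.48 CPM in WT2, WT3 and WT4. Its log2 difference of −0.96 was not called over all libraries (edgeR adjusted p = 0.611) but was −2.34 in the libraries numbered 2 and 3 alone (edgeR adjusted p = 8.8e-06) and −2.43 without KO4 (edgeR adjusted p = 0.0052), so KO4 decides that call.

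Gcsam (chromosome 16, 45610380 to 45622867) encodes an adaptor that tunes B-cell receptor signalling and cell movement in germinal centre cells. It had 53, 77 and 24 counts in KO2, KO3 and KO4, against 47, 34 and 40 counts in WT2, WT3 and WT4. These are 1.203, 1.85 and 0.606 CPM in knockout and 1.064, 0.773 and 1.14 CPM in wild type. Knockout held both the highest and the lowest library, and their exact Poisson intervals, 1.46 to 2.32 CPM in KO3 and 0.388 to 0.902 CPM in KO4, did not meet. The ratio of the highest to the lowest library, 3.06, was the largest among the tested members, where that of Bcl6 was 1.28. The fold between genotypes was 1.24 with a wide interval of 0.683 to 2.24 (log2 0.31, SE 0.38, edgeR adjusted p = 0.755). Without KO3 the log2 difference was −0.12 (edgeR adjusted p = 0.924).

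Nuggc (chromosome 14, 65598546 to 65648531) encodes a nuclear GTPase of germinal centre B cells, known to limit DNA damage during antibody gene mutation. It reached 3.25, 4.45 and 2.02 CPM in KO2, KO3 and KO4, against 2.83, 1.75 and 2.05 CPM in WT2, WT3 and WT4. KO3 and KO2 were the highest libraries, and KO4 lay below both WT2 and WT4. The mean was 3.24 ± 1.22 CPM in knockout and 2.21 ± 0.557 in wild type, a fold of 1.46 with an interval of 0.915 to 2.34 (log2 0.55, SE 0.30, edgeR adjusted p = 0.460). With 1 library left out the log2 difference ran between 0.25, without KO3, and 0.80, without KO4. In the libraries numbered 2 and 3 alone the log2 difference was 0.75 and this was called (edgeR adjusted p = 0.0423), the only member to do so in any of the alternatives run. Those libraries alone gave 3307 called genes over the whole table, against 55 with all 6 libraries, so a call there is not particular to Nuggc.

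Basp1 (chromosome 15, 25363285 to 25413764, minus strand) encodes a membrane-associated protein that also acts as a transcriptional co-repressor. Its levels were 1.48, 1.68 and 0.884 CPM in KO2, KO3 and KO4, against 1.29, 1.23 and 0.970 CPM in WT2, WT3 and WT4. As for Mybl1, both libraries numbered 4 were below the other 4. The fold was 1.16 with an interval of 0.747 to 1.79 (log2 0.21, SE 0.28, edgeR adjusted p = 0.774).

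The start windows of Basp1 and Rgs13 are printed because both genes lie under the lower quartile of level (0.680 and 1.13 FPKM) and at the far ends of the members in CG content. The window of Basp1 (chr15:25413715-25414014, minus strand) holds 38 CG dinucleotides, and 4.95% of all windows hold at least as many. That of Rgs13 (chr1:144177323-144177622, minus strand) holds 0, as do 5.43% of all windows. CG is in capitals.
Basp1, start window: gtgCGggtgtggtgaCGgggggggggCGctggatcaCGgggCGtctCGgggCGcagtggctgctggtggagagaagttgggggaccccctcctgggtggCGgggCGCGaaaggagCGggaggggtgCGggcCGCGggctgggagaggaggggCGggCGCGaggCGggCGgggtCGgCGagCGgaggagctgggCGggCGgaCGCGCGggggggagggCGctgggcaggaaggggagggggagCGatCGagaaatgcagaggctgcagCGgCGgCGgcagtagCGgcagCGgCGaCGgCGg
Rgs13, start window: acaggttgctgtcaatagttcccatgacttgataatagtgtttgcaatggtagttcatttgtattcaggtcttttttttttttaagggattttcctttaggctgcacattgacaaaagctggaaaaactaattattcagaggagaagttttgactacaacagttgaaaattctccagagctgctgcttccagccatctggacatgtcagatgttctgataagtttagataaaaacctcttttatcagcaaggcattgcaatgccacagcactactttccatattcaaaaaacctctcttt

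Of the 9 members 7 matched the RefSeq table, with 8 windows. The second window of Bcl6 held 14 CG. Besides the 4 printed windows, the others held 18 CG for S1pr2, 14 for Fas, 11 for Mef2b and 4 for Gcsam. TTCNNNGAA was found once in the window of Fas and once in the first window of Bcl6, and the MEF2 motif, sought on both strands and present in 0.557% of all windows, in none of the 8. Basp1 had more CG than the first window of Bcl6 (31), and the levels of this pair were 0.680 FPKM for Basp1 and 23.9 FPKM for Bcl6. Methylation was not measured here.

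**Figure D3:**
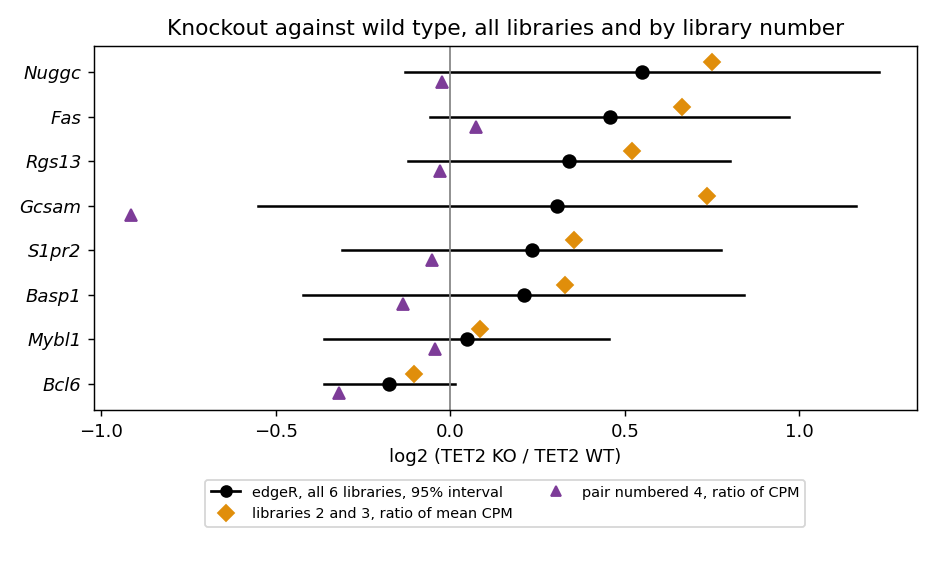
Log2 ratio of TET2 KO over TET2 WT for the 8 tested genes, with black points and bars for the edgeR estimate over all 6 libraries and its 95% interval, orange diamonds for the ratio of mean CPM in libraries 2 and 3, and purple triangles for the ratio in the pair numbered 4. Each black interval includes 0, and for all 8 genes the triangle lies left of the diamond, farthest for Gcsam (−0.91 for the triangle, 0.73 for the diamond).

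The 6 tested members under the lower quartile of level, Gcsam, S1pr2, Rgs13, Nuggc, Mybl1 and Basp1, all stood above their wild-type mean in KO2 and KO3, and 5 of them below it in KO4. The wild-type libraries had no shared order, as WT3 was the lowest library for S1pr2, Rgs13 and Nuggc, while WT4 was the lowest wild-type one for Mybl1 and Basp1. Their summed level was 14.6, 17.04 and 10.4 CPM in KO2, KO3 and KO4, against 13.2, 10.5 and 11.2 CPM in WT2, WT3 and WT4. The mean was 14.003 ± 3.38 CPM in knockout and 11.7 ± 1.405 in wild type, so the genotypes differed by less than the spread within knockout. KO3 was the highest library for 5 of the 6 genes and KO2 for S1pr2. The lowest library was KO4 for 3 genes (Gcsam, Mybl1 and Basp1) and WT3 for the other 3. In KO2 and KO3 all 6 genes were above their own median over the libraries, and in KO4 none was. The 6 genes were read in the same libraries, and the share of all tested genes with such a pattern was not counted. Set against Bcl6, the sum came to 9.67%, 10.6% and 7.38% of the Bcl6 CPM in KO2, KO3 and KO4, and 8.55%, 5.86% and 6.42% in WT2, WT3 and WT4.

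**Figure D4:**
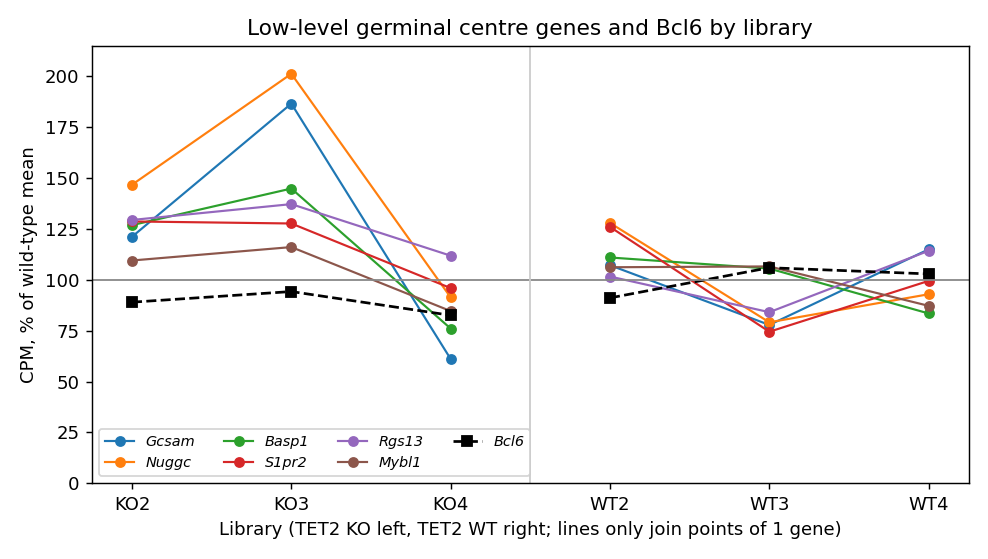
CPM of 6 low germinal centre genes (coloured circles) and of Bcl6 (black squares) in each library, as a percentage of the gene's wild-type mean, with TET2 KO at the left and TET2 WT at the right and lines that only join the points of 1 gene. All 6 circles lie above 100% in KO2 and KO3 (109% to 201%), while in KO4 all but that of Rgs13 (112%) lie below it, and Bcl6 lies between 82.6% and 106% in the 6 libraries.

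Because the libraries numbered 4 stood apart over all genes, the difference between genotypes was set out by number. In the pair numbered 4 only Fas was above 0 on the log2 scale among the 8 tested members (0.07), and in the ratio of mean CPM over libraries 2 and 3, 7 of 8 were. The share of all tested genes above 0 by number was not counted. Gcsam lay at −0.91 in the pair numbered 4 and at 0.73 in libraries 2 and 3, the widest gap. Nuggc lay at −0.02 in the pair and 0.75 in libraries 2 and 3, and Fas at 0.07 in the pair and 0.66 in libraries 2 and 3. Rgs13 had −0.03 in the pair and 0.52 in libraries 2 and 3. S1pr2 (−0.05 in the pair, 0.35 in libraries 2 and 3) and Basp1 (−0.13 in the pair, 0.33 in libraries 2 and 3) lay likewise on both sides of 0. Mybl1 (−0.04 in the pair, 0.08 in libraries 2 and 3) was near 0 in both, and Bcl6 was below 0 in both (−0.32 in the pair, −0.10 in libraries 2 and 3). The test of that difference itself, an interaction added after the data were seen, called 0 of 8 members (edgeR adjusted p under 0.05, against 1.19% of all genes), and 1 of 8 had an unadjusted p under 0.05, against 16% of all genes. That gene was Gcsam (interaction −1.64 on the log2 scale, SE 0.57, edgeR adjusted p = 0.154). The pair numbered 4 is 1 library per genotype, which limits this test.

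With a term for the libraries numbered 4 in the model, edgeR again called 0 of 8 members, against 4.4% of all genes. The smallest adjusted p among the members was that of Bcl6 (log2 −0.18, edgeR adjusted p = 0.156). The same model gave the difference of the libraries numbered 4 from those numbered 2 and 3. Here 14.8% of all genes were called and 0 of 8 members, and at an unadjusted p under 0.05 it was 32.2% of all genes and 2 of 8 members. They were Basp1 (log2 −0.61, SE 0.24, edgeR adjusted p = 0.105) and Mybl1 (log2 −0.35, SE 0.15, edgeR adjusted p = 0.134). Of the 8 members 6 were lower in the libraries numbered 4, the exceptions being Fas (0.15) and Rgs13 (0.02).

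Some genes of other programmes were also highest in KO2 and KO3. Mki67, a marker of dividing cells, stood at 170.2%, 187% and 91.2% of its wild-type mean in KO2, KO3 and KO4, against 117%, 99.3% and 83.6% in WT2, WT3 and WT4. Top2a, a topoisomerase of dividing cells, stood at 164%, 164% and 113% in KO2, KO3 and KO4, against 104%, 96.4% and 99.7% in WT2, WT3 and WT4. Igj, the joining chain made by antibody-secreting cells, had 376%, 244% and 128% in KO2, KO3 and KO4, against 91.1%, 153% and 56.3% in WT2, WT3 and WT4. Igj was named after its values were seen, and its list did not share this rise. Of the 8 tested genes of antibody-secreting cells 3 were above 0 on the log2 scale and 5 below, with a median of −0.06. Of 14 listed cell-cycle genes 13 were above 0 on the log2 scale, with a median of 0.37, and edgeR called 0, DESeq2 1 (Top2a) and limma-voom 0. At an unadjusted edgeR p under 0.05 there were 4 of 14 higher, against 13.4% of all tested genes in either direction. They were Top2a (log2 0.55, edgeR adjusted p = 0.186), Cdk1 (log2 0.69, edgeR adjusted p = 0.292), Mki67 (log2 0.58, edgeR adjusted p = 0.359) and Aurkb (log2 0.39, edgeR adjusted p = 0.307). Aurkb was named after its values were seen. With the term for the libraries numbered 4, Top2a and Mki67 were called (edgeR adjusted p = 0.0275 and 0.0450), against 4.4% of all tested genes. Their part in the levels of the germinal centre genes was not tested.

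Markers of other cells were summed over lists, some of whose genes B cells also express. Cd3e, the T-cell receptor component, had 0.0454, 0.0722 and 0.0505 CPM in knockout and 0.0226, 0 and 0.0571 CPM in wild type. Il21, a product of T follicular helper cells, had 1 count in all, in KO2. The 14 T-cell genes summed to 295 to 324 CPM in knockout and 262 to 293 in wild type, of which 5 genes passed the filter on low counts and 3 were at or under 3 counts in each library. These sums did not overlap between the genotypes, nor did 3 of the 5 tested genes, against 18.5% of all tested genes. EdgeR called 0 of the T-cell genes, DESeq2 1 and limma-voom 0. Of those tested 1 was higher and 1 lower at an unadjusted edgeR p under 0.05, against 13.4% of all tested genes in either direction. The same 13.4% stands beside the myeloid and NK counts below. The 6 genes of follicular dendritic cells and stroma, of which 0 passed the filter, summed to at most 0.295 CPM. The 10 myeloid genes summed to 26.3 to 36.7 CPM in knockout and 29.7 to 33.7 in wild type, and the 6 of NK cells to 2.05 to 2.84 CPM in knockout and 2.14 to 2.28 in wild type. Of 5 tested myeloid genes DESeq2 called 1 and edgeR 0, with 1 higher and 1 lower at an unadjusted edgeR p under 0.05, and of 3 tested NK genes each tool called 0, with 2 higher at an unadjusted edgeR p under 0.05 and a median log2 difference of 0.93. The 7 of dendritic cells summed to 6.47 to 7.51 CPM in knockout and 5.34 to 6.75 in wild type. For red cells (7 genes) the sum was 9.26 to 15.7 CPM in knockout and 7.54 to 19.9 in wild type, and for platelets (5 genes) 1.64 to 2.497 CPM in knockout and 1.97 to 3.08 in wild type. The 9 genes of antibody-secreting cells summed to 463 to 529 CPM in knockout and 488 to 545 in wild type, with 3 of 8 tested genes above 0 and 5 below (median log2 difference −0.06, Igj included). The part of such cells in the member values was not tested.

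A wider list of germinal centre genes was set beside the 9 members. Of its 28 genes 27 were tested, all but Tox2 (0.0631 ± 0.0240 CPM in knockout, 0.0759 ± 0.0351 CPM in wild type), and 17 were above 0 and 10 below, with a median log2 difference of 0.12. EdgeR called 0, DESeq2 2 and limma-voom 0. At an unadjusted edgeR p under 0.05 there were 3 higher (Klhl6, Pou2af1 and Spib) and 1 lower (Plxnb2), against 13.4% of all tested genes in either direction. Klhl6, an adaptor needed for germinal centre formation, had 212.9 ± 9.24 CPM in knockout and 174 ± 9.40 in wild type, without overlap (log2 0.29, SE 0.07, edgeR adjusted p = 0.157). Plxnb2, a semaphorin receptor, had 13.5 ± 2.53 CPM in knockout and 19.9 ± 1.78 in wild type, without overlap (log2 −0.56, SE 0.14, edgeR adjusted p = 0.176). DESeq2 called both. With the term for the libraries numbered 4 edgeR called 3 of the 27 genes, against 4.4% of all tested genes. They were Klhl6 (edgeR adjusted p = 0.0257) and Pou2af1 (0.0453), both higher, and Plxnb2 (0.0115), lower. Pou2af1, a coactivator required for germinal centres and named like Spib after its values were seen, had 920.3 ± 44.1 CPM in knockout and 757 ± 64.8 in wild type. Cxcr4, the receptor that draws cells to the dark zone, followed the library number, with 93.1, 92.5 and 192 CPM in KO2, KO3 and KO4, against 131, 89.1 and 199 CPM in WT2, WT3 and WT4 (log2 −0.15, edgeR adjusted p = 0.908). Of 14 genes of light zone cells and activation edgeR called 1, DESeq2 2 and limma-voom 1. The gene called by edgeR was Cd86, a costimulatory ligand, at 59.4 ± 2.61 CPM in knockout, against 32.0 ± 6.54 CPM in wild type (log2 0.90, SE 0.13, edgeR adjusted p = 0.0309). Leaving out any 1 of KO2, KO3, WT2 or WT3 ended this call, with an edgeR adjusted p between 0.117 and 0.158 at log2 differences of 0.80 to 0.93.

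Partners and known targets of BCL6 were checked beside its own level. Of 12 listed co-repressors and related factors 11 were tested, edgeR, DESeq2 and limma-voom each called 0, and 1 had an unadjusted edgeR p under 0.05, where it was lower in knockout. Zbtb17 (MIZ1), a partner of BCL6 on DNA, stood at 48.4 ± 1.13 CPM in knockout, against 53.2 ± 2.90 in wild type (log2 −0.14, edgeR adjusted p = 0.469). Of 20 genes described as repressed by BCL6 all were tested, with 10 above and 10 below 0, a median log2 difference of −0.06, and edgeR and limma-voom called 0 of them, DESeq2 2. At an unadjusted edgeR p under 0.05 there were 2 higher, Cd74 among them, and 1 lower (Atr, a DNA damage kinase named after its values were seen). Prdm1, the plasma-cell factor that BCL6 represses, had 2.02, 2.02 and 1.62 CPM in KO2, KO3 and KO4, against 2.44, 1.59 and 2.51 CPM in WT2, WT3 and WT4 (log2 −0.21, edgeR adjusted p = 0.728). Gpr183, the receptor that guides B cells to the outer follicle, had 153 ± 22.1 CPM in knockout and 144 ± 29.5 in wild type (log2 0.09, edgeR adjusted p = 0.820). DESeq2 called Cd74, the invariant chain of MHC class II, at 17086 ± 1171 CPM in knockout, against 13797 ± 463 in wild type (log2 0.31, edgeR adjusted p = 0.267).

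For each tested member the 2 genes whose log2 CPM tracked it most closely over the 6 libraries were picked out. The search took in only protein-coding genes above a floor of mean CPM. Names such as those of clones, ribosomal proteins, immunoglobulin segments and pseudogenes were left out. Pearson's r of the closest gene ran from 0.981 for Gcsam to 0.999 for Rgs13. Each is the highest of many genes over only 6 points that share library and depth. For Bcl6 the closest were Mrc1 (r = 0.988), a macrophage lectin at 0.682 to 1.68 CPM, and Sh3pxd2a (0.982), and for Fas they were Tmem97 (0.988) and Tsr1 (0.986). Gcsam lay closest to Mthfsd (0.981) and Cradd (0.968), S1pr2 to Nde1 (0.991) and Tmem138 (0.979), and Rgs13 to Med8 (0.999) and Nudt2 (0.996). For Nuggc they were Cdca3 (0.995), a gene of cell division that had 4.29, 5.44 and 3.13 CPM in KO2, KO3 and KO4, against 3.83, 2.75 and 2.94 CPM in WT2, WT3 and WT4, and Tnik (0.991). Mybl1 lay closest to Gstz1 (0.998) and Megf11 (0.997), and Basp1 to Snx29 (0.995) and Ppil2 (0.991). None of these 16 genes was called between the genotypes (edgeR adjusted p 0.373 to 0.951).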

How the data were processed

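Stranded mRNA libraries were made from Trizol- and RNeasy-purified RNA of splenic naive B cells, per the labels' protocols. The deposited counts are raw: whole numbers of fragments for each gene name, as the authors counted them. They were made with featureCounts 1.5.1 over exons of GENCODE vM3, counting fragments of read pairs and setting no strandedness, per the file headers, so reads of genes that overlap on opposite strands cannot be told apart. Alignment used STAR 2.3.0e on GRCm38.p3, per the submitters' processing notes. The summed exon length per gene, in bases, was read from the same deposited table and used for FPKM only. A further 6 count columns of the table match none of the samples here and were not used.

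Of 41053 gene names 23019 had a count and 13604 passed filterByExpr (minimum count 10). CPM used TMM-normalized library sizes. The genotypes were compared with the quasi-likelihood F test of edgeR (edgeR 4.0.16, R 4.3.3) with robust dispersion, no covariate, and Benjamini-Hochberg adjustment over all 13604 genes, at a threshold of 0.05. The common biological coefficient of variation was 12.4%. Poisson intervals of single libraries are exact, at 95%, and cover counting error only. DESeq2 1.42.0, limma-voom (limma 3.58.1), other scalings and filters, a term for the libraries numbered 4, libraries 2 and 3 alone, a replicate block, leaving out Y-linked genes with Xist and leaving out each library were run as alternatives. The interaction of genotype and library number was added after the data were seen.

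The members and lists were chosen with earlier results of these data known. The text names the 9 members, Tet2 and some defining genes of each pathway. In each list it names the called genes or else the 2 of smallest p. It also names the 2 genes closest to each tested member by Pearson's r, among the protein-coding genes searched. Cell type markers, 2310045N01Rik, Tox2, Igj and the genes said to be so were named after their values were seen. Some genes that this rule names are not reported here, while the counts of their lists include them. Sequences are from RefSeq (GRCm38.p6), with no window for Nuggc and Mybl1.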

Additional observations from a re-analysis of the deposited data

How the results depend on the processing

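Between the genotypes 55 genes were called over all genes. The count was 349 with DESeq2, 599 with the term for the libraries numbered 4, 3307 in libraries 2 and 3 alone, 262 without the filter on low counts, and 17 to 900 when 1 library was left out, with 900 without WT4, 146 without KO4 and 17 to 26 without KO2, KO3, WT2 or WT3. Of the germinal centre members 0 were called by edgeR, and 1 (Nuggc) in libraries 2 and 3 alone. Of the other germinal centre genes 0 were called, with 2 under DESeq2, 3 with the term for the libraries numbered 4, 9 in libraries 2 and 3 alone, 1 without the filter and 0 to 2 with a library left out. Of the genes repressed by BCL6 0 were called, with 2 under DESeq2, 4 in libraries 2 and 3 alone, 1 without the filter and 0 to 1 with a library left out. The cause of these shifts was not tested.

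The replicate numbers were shared by the genotypes. Same-numbered libraries had correlated deviations in the pairs numbered 3 (r = 0.220) and 4 (0.394) but hardly in the pair numbered 2 (0.0857), and KO2 was closest to WT3 (0.239), so the numbers were not taken to pair the libraries. With the number as a replicate block 85 genes were called and 0 members.

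Scaling to library size alone turned Mybl1 to −0.0014 and Mef2c to −0.018, and libraries 2 and 3 alone turned Prdm1 to 0.0027. With 1 library left out, the log2 difference of knockout over wild type ran from −0.12 to 0.62 for Gcsam, from −0.043 to 0.17 for Mybl1, from −0.59 to 0.19 for Cxcr4, from −0.021 to 0.087 for Mef2c and from −0.039 to 0.26 for Gpr183. That of the libraries numbered 4 against 2 and 3 ran from −0.15 to 0.065 for Bcl6, from −0.14 to 0.46 for Fas, from −1.32 to 0.32 for Gcsam and from −0.25 to 0.30 for Rgs13. Apart from these and Nuggc, the members' results kept their direction and stayed not called in the alternatives run. Depth limits the low tested members, most of all Gcsam, with 24 to 77 counts a library, and Basp1, with 34 to 70.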
